A study of Mus musculus with 10 samples.

Results

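The 41 genes described here are interferon-stimulated genes of the mouse: antiviral effectors, sensors of foreign or misplaced nucleic acid, and the transcription factors through which type I interferon acts. They were chosen by name, as 41 gene symbols matched to the Entrez identifiers of a whole-lung count table. All 41 were found among the table's 27179 genes, and all 41 passed the filter on low counts that left 15301 genes for testing. They were set in 8 subgroups by the role of the protein. The lungs came from 10 mice. The 5 Flox mice had the genotype Shh +/+ IRE1α fl/fl, and the 5 EpithelialKO mice were Shh Cre/+ IRE1α fl/fl. Both groups thus carried the floxed IRE1α alleles, and the EpithelialKO mice also carried Cre on 1 Shh allele, which the Flox mice lacked. IRE1α, encoded by Ern1, is the kinase and ribonuclease of the endoplasmic reticulum that splices Xbp1 mRNA during the unfolded protein response. Shh-driven Cre acts in the epithelium that lines the developing airways and alveoli, so that the other cells of the lung were not its target. With these 2 groups, carrying Cre, having 1 Shh allele altered by it and losing IRE1α cannot be told apart. The labels give neither age nor sex nor strain nor infection or treatment.

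Type I interferons are secreted proteins that bind the receptor IFNAR on almost every cell. The receptor's kinases JAK1 and TYK2 phosphorylate STAT proteins, among them STAT2, which joins IRF9 in the factor ISGF3. ISGF3 binds the interferon-stimulated response element (ISRE) in promoters of genes whose products degrade viral RNA, block viral translation and budding, or sense viral nucleic acid. In the uninfected lung these genes are held at a low constant level, and epithelium, endothelium, macrophages and other leukocytes can all express them.

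The promoters of the genes carry the letters of the ISRE more often than promoters in general. RefSeq promoter stretches of build GRCm38.p6, from 250 bases before to 50 bases after each transcript start in that table, were available for 31 of the 41 genes. They were searched on both strands for the letters GAAA, any 2 bases and GAAA again, counting overlapping matches; on the other strand a match reads TTTC, any 2 bases and TTTC. A match was found in 15 of the 31 (48.4%), against 1079 of 27025 genes in the table (3.99%), and 8 of the 15 had 2 or more matches. A match describes letters only, not a bound site. The stretches around the matches of 8 genes are printed because they show the densest matches, the pairs of genes with nearly the same promoter, and 2 of the genes with an unadjusted p under 0.05 in the expression comparison (Bst2 and Ddx60). Capitals mark the bases in matches, and each stretch reads 5′ to 3′ on the gene's strand.
Isg15 (chr4:156200855-156200916, - strand): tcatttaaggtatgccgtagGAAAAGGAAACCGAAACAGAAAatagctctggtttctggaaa
Ifit1 (chr19:34640765-34640833, + strand): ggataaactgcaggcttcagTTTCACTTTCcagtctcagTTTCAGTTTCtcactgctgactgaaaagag
Ifit3 (chr19:34583353-34583436, + strand): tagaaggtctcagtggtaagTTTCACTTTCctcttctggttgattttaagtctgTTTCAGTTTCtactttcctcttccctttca
Ifit3b (chr19:34607749-34607832, + strand): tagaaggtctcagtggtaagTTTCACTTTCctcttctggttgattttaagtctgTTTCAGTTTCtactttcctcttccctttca
Oas1a (chr5:120907526-120907565, - strand): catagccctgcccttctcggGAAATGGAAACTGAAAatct
Oas1g (chr5:120887614-120887651, - strand): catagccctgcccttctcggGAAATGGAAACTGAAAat
Bst2 (chr8:71537567-71537622, - strand): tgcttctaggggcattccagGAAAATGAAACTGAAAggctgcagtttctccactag
Ddx60 (chr8:61928014-61928086, + strand): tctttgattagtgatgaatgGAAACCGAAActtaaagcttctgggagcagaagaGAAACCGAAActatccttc
Isg15 had 3 overlapping matches in 22 bases, starting 78 bases before the gene's start. The stretches of Ifit3 and Ifit3b were identical over all 84 bases, and those of Oas1a and Oas1g shared the same 16 bases of motif. Bst2 had 2 overlapping matches, and Ddx60 had 2 separate copies of GAAACCGAAA, starting 53 and 19 bases before its transcript start in the promoter table. Of the 8 genes with an unadjusted p under 0.05 in that comparison, all 8 had a promoter in the table and 3 had a match (Bst2, Ifih1 and Ddx60).

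Each library held between 14983829 and 21224412 counts, and a member had between 12 and 2933 counts in a mouse. Expression is given as CPM, the count relative to the library's total after TMM scaling, and group values are means ± SD over 5 mice. Values per mouse are listed in the order 2, 3, 4, 5 and 6 for Flox and 17, 18, 20, 21 and 22 for EpithelialKO, the numbers the labels give. Fold changes compare EpithelialKO with Flox on the log2 scale, so that negative values are lower in EpithelialKO, and stand with ± SE from edgeR's quasi-likelihood test, with Benjamini-Hochberg adjustment over all 15301 genes and a threshold of 0.05. Ern1 itself had 16.8 ± 5.28 CPM in Flox and 17.3 ± 6.52 CPM in EpithelialKO lungs, a log2 fold change of 0.04 ± 0.27 (adjusted p = 0.975); a count over the whole gene in whole lung does not check a deletion of floxed exons in the epithelium. Flox mice 4 and 6 had 3949 and 4866 counts of Xist and none of 4 Y-linked genes, whereas the other 8 mice had at most 61 counts of Xist and at least 2462 of the Y-linked genes. All 5 EpithelialKO mice were therefore of the second kind, and the medians of the subgroups and cell marker lists are also given without Flox mice 4 and 6.

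No member passed the threshold in edgeR. Of all genes tested 6 did, which is 0.0392%. Of the 41 genes, 37 had a negative fold change (90.2%), against 49.9% of all tested genes, and the median over the members was -0.19 against 0.00 for all tested genes. At an unadjusted p under 0.05, 8 members were lower in EpithelialKO and 0 were higher, which is 19.5% of the members against a background of 6.52% of tested genes lower and 5.87% higher. These 8 were Trim25, Ddx60, Ifi44, Bst2, Irf7, Sp100, Xaf1 and Ifih1. The fold changes of the 41 genes lay between -0.90 (Ddx60) and 0.24 (Rsad2), and 33 of the 41 had a 95% interval that included 0. By comparison, DESeq2's Wald test called 2 members, Trim25 (adjusted p = 0.00873) and Ddx60 (adjusted p = 0.0461), against 1.34% of the 12627 genes for which it gave an adjusted p as lower, and it gave no adjusted p for Oas1g, Mx1 and Mx2. Limma-voom with sample weights called 0 members, against 0.131% of tested genes called lower, and had 10 members lower at an unadjusted p under 0.05, against 8.25% of tested genes. In bulk RNA, fewer cells of a type and less RNA per cell cannot be told apart.

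**Figure D1:**
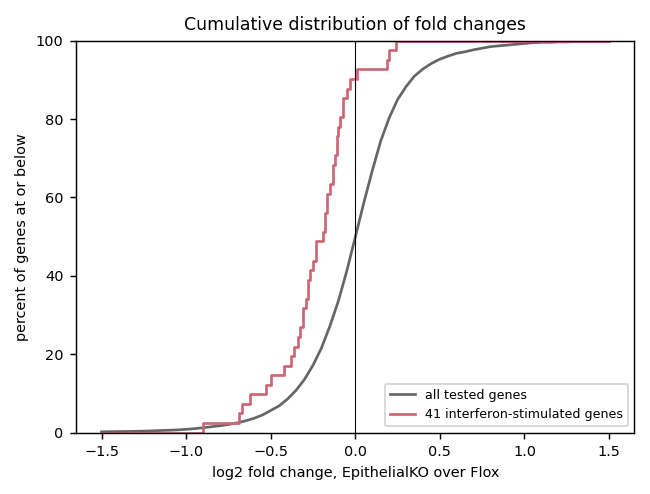
Cumulative share of genes (percent, y axis) at or below each log2 fold change of EpithelialKO over Flox (x axis), for the 41 interferon-stimulated genes (red steps) and all 15301 tested genes (grey). The red steps reach 90.2% below 0, where the grey curve reaches 49.9%, and the medians are -0.19 and 0.00.

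The level of the genes also differed between mice of the same group. Every member was set against its own mean over the 10 mice in log2 CPM, and the median over the 41 genes was taken per mouse. That median was 0.00, 0.33, 0.19, -0.15 and 0.18 in Flox mice 2, 3, 4, 5 and 6. In EpithelialKO mice 17, 18, 20, 21 and 22 it was -0.15, 0.03, -0.05, -0.13 and -0.19. Flox mice 3, 4 and 6 were thus the highest, Flox mouse 5 was as low as EpithelialKO mouse 17, and the groups overlapped. Flox mouse 3 had the highest value of 17 of the 41 genes, although it was highest in 7.19% of all tested genes. Flox mouse 5 had the lowest value of 9 genes and EpithelialKO mouse 22 of 11, and these mice were lowest in 15.6% and 13.8% of all tested genes. The library of Flox mouse 5 was the smallest, at 14983829 counts, and had the lowest limma-voom sample weight, 0.479. Over all tested genes that mouse was also the highest in 15.8%. The 5 Flox mice together held the highest value of 35 members and of 49.9% of all tested genes. All 5 EpithelialKO mice lay below the Flox mean in 13 of the 41 genes, against 12.9% of tested genes, and 2 genes had every EpithelialKO mouse below every Flox mouse, against 1.48% of tested genes. No member had every EpithelialKO mouse above every Flox mouse, against 1.63%.

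**Figure D2:**
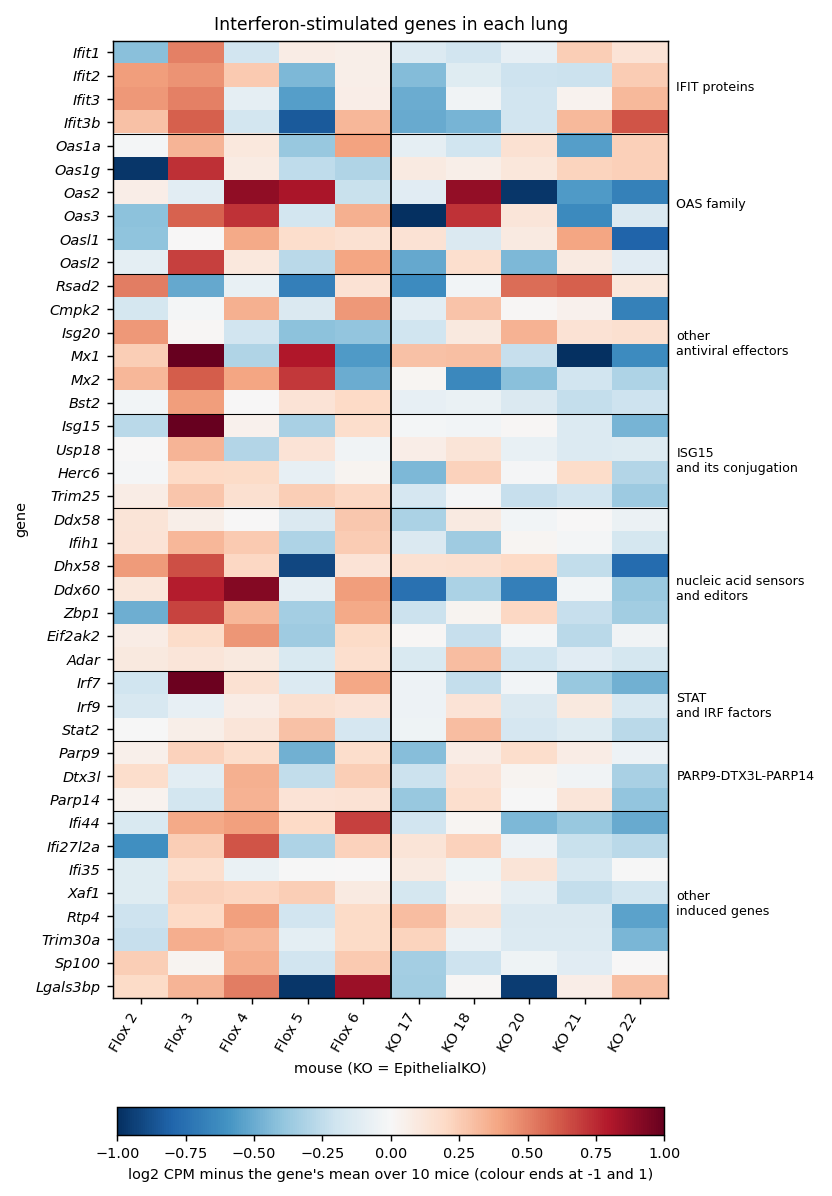
Log2 CPM of each of the 41 genes (rows, by subgroup) in each mouse (columns; KO is EpithelialKO), as the difference from that gene's mean over 10 mice, with the colour scale ending at -1 and 1. Flox mouse 3 is highest in 17 rows, and the columns of Flox mouse 5 and EpithelialKO mouse 22 hold the lowest values of 9 and 11 rows.

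Single mice also set how many genes reached an unadjusted p under 0.05. Without Flox mouse 3, 5 members did so as lower (background 6.09%) and the median was -0.13. Leaving out Flox mouse 4 gave 5 genes (background 5.59%), and leaving out Flox mouse 5 gave 11 (background 7.97%) with a median of -0.28. Without Flox mice 4 and 6, the pair with high Xist, 6 members were lower at an unadjusted p under 0.05 (background 4.12%), of which 4 were among the 8 named above (Trim25, Ddx60, Bst2 and Irf7) and the other 2 were Mx1 and Mx2; 32 of 41 had a negative fold change and the median was -0.13. With that sex class as a covariate 7 members were lower (background 4.66%), 5 of them among the 8. Without Flox mice 4 and 6 the log2 fold changes of the 4 genes that no longer had an unadjusted p under 0.05 were -0.45 for Ifi44, -0.17 for Sp100, -0.25 for Xaf1 and -0.21 for Ifih1. The subgroup medians depended on these mice too. Without Flox mice 4 and 6 they were nearer to 0 for the OAS family (-0.11 against -0.26 with all mice), the sensors and editors (-0.14 against -0.25), the PARP9, DTX3L and PARP14 genes (-0.03 against -0.18), the other antiviral effectors (-0.14 against -0.24) and the other induced genes (-0.11 against -0.25). They were farther from 0 for the IFIT genes (-0.18 against -0.13), the ISG15 system (-0.29 against -0.22) and the STAT and IRF factors (-0.17 against -0.11). Among single genes, Lgals3bp had -0.08 without these mice against -0.42 with them, Oas3 -0.14 against -0.36 and Dtx3l -0.03 against -0.18.

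Between genes, levels can be compared only per length, as CPM per kilobase of exon, which was known for 40 of the 41 genes (all but Mx1). On that scale Ifi27l2a (142), Bst2 (132) and Ifi35 (46.6) were the most abundant members over the 10 mice, followed by Ifit3 (35.9), Isg20 (31.9) and Isg15 (24.4). Ddx60 (0.554), Mx2 (0.619), Oas3 (0.744) and Oas1g (0.821) were the least abundant. The members that reached an unadjusted p under 0.05 came from both ends of this range, from Bst2 to Ddx60.

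The transcription factors of the response come first. Irf7 encodes the factor that amplifies interferon production and is itself induced by interferon (chr7:141263183-141266499, Entrez 54123). It was measured at 20.4, 46.5, 26.1, 21.4 and 30.7 CPM in the Flox mice and 22.8, 19.9, 23.1, 18.1 and 16.8 CPM in the EpithelialKO mice. Flox mouse 3 stood highest, 3 EpithelialKO mice lay below every Flox mouse, and the other 2 lay within the Flox range. The means were 29.0 ± 10.6 CPM in Flox and 20.1 ± 2.77 CPM in EpithelialKO lungs, and the log2 fold change was -0.53 ± 0.20 (95% interval -0.95 to -0.11; adjusted p = 0.279), or -0.30 without Flox mouse 3. With the group names exchanged among the mice in all 252 ways, an exact permutation test (two-sided, difference of -0.47 in mean log2 CPM) gave p = 0.0635 for Irf7 and 0.127 after adjustment over the 2 genes so tested; the smallest p this design can give is 0.00794. Irf9, which supplies the DNA contact of ISGF3, had 51.7, 54.6, 61.0, 64.8 and 63.8 CPM in the Flox mice and 56.0, 63.7, 52.4, 62.0 and 51.9 CPM in the EpithelialKO mice. All EpithelialKO values lay within the Flox range, and the log2 fold change was -0.05 ± 0.10 (95% interval -0.26 to 0.16; adjusted p = 0.892). Stat2, the STAT gene among the members, had 40.7, 42.5, 44.2, 49.99 and 36.3 CPM in the Flox mice and 39.5, 50.4, 36.2, 37.3 and 33.8 CPM in the EpithelialKO mice. EpithelialKO mouse 18 was the highest of all 10 and mice 20 and 22 were the lowest, so the groups overlapped (log2 fold change -0.11 ± 0.12, adjusted p = 0.756). The median of these 3 factors was -0.11.

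The 7 sensors and editors of nucleic acid all had negative fold changes, with a median of -0.25, and 2 of them had an unadjusted p under 0.05. Ddx60, an RNA helicase related to the sensors of viral RNA (chr8:61928073-62037704, Entrez 234311), was measured at 4.84, 7.76, 8.53, 4.19 and 5.99 CPM in the Flox mice and 2.62, 3.57, 2.75, 4.38 and 3.44 CPM in the EpithelialKO mice. Of the EpithelialKO mice, 4 lay below the lowest Flox mouse, and mouse 21 lay just above it. The means were 6.26 ± 1.85 CPM in Flox and 3.35 ± 0.71 CPM in EpithelialKO lungs, so that EpithelialKO lungs held 53.6% of the Flox level. The log2 fold change was -0.90 ± 0.27 (95% interval -1.46 to -0.34; adjusted p = 0.173), between -1.02 and -0.76 when each mouse was left out in turn, and -0.74 without Flox mice 4 and 6. Ifih1 encodes MDA5, the cytosolic sensor of long double-stranded RNA (chr2:62595618-62646255, Entrez 71586). It had 41.7, 47.6, 45.4, 30.5 and 45.2 CPM in the Flox mice and 34.2, 29.6, 38.4, 37.3 and 33.5 CPM in the EpithelialKO mice. Flox mouse 5 lay among the EpithelialKO mice, and the other 4 Flox mice lay above all of them. The log2 fold change was -0.28 ± 0.13 (95% interval -0.55 to -0.02; adjusted p = 0.368). Ddx58 encodes RIG-I, the sensor of short or uncapped double-stranded RNA. Its values were 53.2, 50.7, 48.6, 43.9 and 58.5 CPM in the Flox mice and 39.0, 51.9, 47.7, 48.6 and 46.6 CPM in the EpithelialKO mice. EpithelialKO mouse 17 was the lowest, the other 4 EpithelialKO mice lay within the Flox range, and the log2 fold change was -0.13 ± 0.11 (adjusted p = 0.673). Adar, which edits adenosine to inosine in double-stranded RNA and so keeps self RNA from being sensed, had 53.4, 54.3, 53.6, 44.9 and 56.2 CPM in the Flox mice and 44.9, 62.0, 43.6, 46.1 and 44.2 CPM in the EpithelialKO mice. EpithelialKO mouse 18 was the highest of all 10 mice, whereas the other 4 EpithelialKO mice lay between 43.6 and 46.1, beside Flox mouse 5 at 44.9 (log2 fold change -0.12 ± 0.11, adjusted p = 0.704). Dhx58 (LGP2, a regulator of RIG-I and MDA5), Zbp1 (a sensor of Z-form nucleic acid) and Eif2ak2 (PKR, the kinase that halts translation) had log2 fold changes of -0.25 ± 0.27, -0.28 ± 0.21 and -0.23 ± 0.14, with adjusted p-values of 0.755, 0.639 and 0.511.

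ISG15 is a ubiquitin-like protein that is conjugated to others after interferon exposure, and the 4 genes of this system all had negative fold changes (median -0.22, 1 with an unadjusted p under 0.05). Trim25, the ubiquitin ligase that acts with RIG-I and can attach ISG15 (chr11:88999403-89020294, Entrez 217069), had 94.9, 109.8, 101, 107 and 104 CPM in the Flox mice and 80.5, 89.6, 76.8, 79.3 and 70.1 CPM in the EpithelialKO mice. The groups did not overlap: the lowest Flox mouse had 94.9 CPM and the highest EpithelialKO mouse 89.6 CPM. Means were 103 ± 5.76 CPM in Flox and 79.3 ± 7.05 CPM in EpithelialKO lungs, which is 76.7% of the Flox level. Trim25 had the lowest adjusted p of the 41 genes in edgeR, with a log2 fold change of -0.38 ± 0.09 (95% interval -0.57 to -0.20; adjusted p = 0.108). Leaving out each mouse gave -0.43 to -0.34, and leaving out Flox mice 4 and 6 gave -0.39. Isg15 itself (chr4:156199424-156200818, Entrez 100038882) had 14.7, 35.5, 18.3, 14.2 and 20.1 CPM in the Flox mice and 17.5, 17.4, 17.9, 16.2 and 12.8 CPM in the EpithelialKO mice. Flox mouse 3 stood alone at 35.5 CPM, and the other 9 mice lay between 12.8 and 20.1 CPM. The log2 fold change was -0.33 ± 0.22 (95% interval -0.79 to 0.14; adjusted p = 0.573), and it was -0.04 without Flox mouse 3; the exact permutation test gave p = 0.405 for Isg15 (adjusted over the same 2 genes, 0.405). Without that mouse the median of the 4 genes was -0.06. Herc6, the main ISG15 ligase of the mouse, had 20.7, 24.0, 23.7, 19.7 and 21.2 CPM in the Flox mice and 15.3, 24.5, 20.7, 23.7 and 17.0 CPM in the EpithelialKO mice. EpithelialKO mice 17 and 22 lay below every Flox mouse and mouse 18 above every one (log2 fold change -0.11 ± 0.15, adjusted p = 0.806). Usp18, which removes ISG15 and dampens IFNAR signalling, had 14.5 ± 2.34 CPM in Flox and 13.8 ± 1.18 CPM in EpithelialKO lungs (log2 fold change -0.07 ± 0.15, adjusted p = 0.895).

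Among the other antiviral effectors, Bst2 encodes tetherin, a membrane protein that holds budding virions on the cell surface (chr8:71534255-71537472, Entrez 69550). It had 116, 158, 119, 130.1 and 136 CPM in the Flox mice and 111, 113, 107, 99.9 and 102 CPM in the EpithelialKO mice. All 5 EpithelialKO mice lay below all 5 Flox mice, with 113 CPM the highest of the former and 116 CPM the lowest of the latter. The means were 132 ± 16.8 CPM in Flox and 107 ± 5.66 CPM in EpithelialKO lungs, or 80.9% of the Flox level, and the log2 fold change was -0.31 ± 0.10 (95% interval -0.51 to -0.10; adjusted p = 0.196; 0.0887 in DESeq2). Isg20, a 3′ exonuclease of RNA, had 78.5, 58.6, 51.1, 43.7 and 44.1 CPM in the Flox mice and 50.8, 62.3, 73.9, 64.5 and 65.2 CPM in the EpithelialKO mice. Flox mice held both the highest value and the lowest, all EpithelialKO values lay between them, and the fold change was positive (0.20 ± 0.15, adjusted p = 0.634). Cmpk2, a mitochondrial nucleotide kinase next to Rsad2 on chromosome 12, had 23.7, 26.4, 34.4, 24.2 and 36.3 CPM in the Flox mice and 25.0, 32.6, 27.0, 27.6 and 16.7 CPM in the EpithelialKO mice. EpithelialKO mouse 22 was lowest, and the groups otherwise overlapped (log2 fold change -0.17 ± 0.17, adjusted p = 0.735). Its neighbour Rsad2, which encodes viperin, an enzyme that makes a chain-terminating nucleotide, had the highest fold change of the 41 genes (0.24 ± 0.26, adjusted p = 0.755). The antiviral GTPase genes Mx1 and Mx2 were low: Mx1 had 2.27 ± 1.25 CPM in Flox and 1.42 ± 0.613 CPM in EpithelialKO lungs and Mx2 2.76 ± 0.796 CPM in Flox and 1.71 ± 0.309 CPM in EpithelialKO lungs. Their log2 fold changes were -0.67 ± 0.47 (adjusted p = 0.593) and -0.69 ± 0.35 (adjusted p = 0.443). The 6 effectors had a median of -0.24, with 4 negative.

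**Figure D3:**
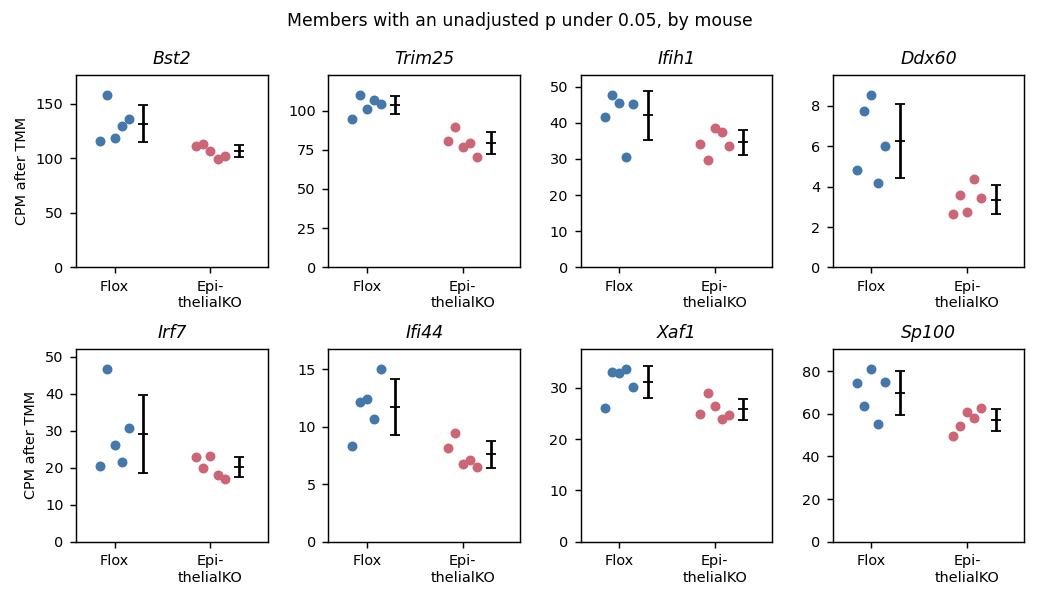
CPM after TMM in each mouse (points, y axis from 0) for the 8 genes with an unadjusted p under 0.05, with Flox in blue and EpithelialKO in red, and the mean ± SD of 5 mice in black. The groups do not overlap for Bst2 and Trim25, and they overlap in at least 1 mouse for the other 6 genes.

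Proteins of the IFIT family bind foreign RNA, such as RNA without the host's cap methylation, and block its translation. Their 4 fold changes were negative with a median of -0.13, and none had an unadjusted p under 0.05. Leaving out Flox mouse 3 moved this median to 0.00, and leaving out EpithelialKO mouse 22 moved it to -0.29. Ifit3, which stabilizes IFIT1, had 82.2, 86.4, 57.1, 41.5 and 63.9 CPM in the Flox mice and 43.1, 59.5, 53.4, 62.5 and 76.2 CPM in the EpithelialKO mice. Flox mice 2 and 3 and EpithelialKO mouse 22 were the highest, and Flox mouse 5 and EpithelialKO mouse 17 the lowest (log2 fold change -0.17 ± 0.19, adjusted p = 0.764). Ifit1 had 26.1, 49.4, 30.6, 36.7 and 36.4 CPM in the Flox mice and 31.6, 30.5, 33.0, 41.4 and 38.3 CPM in the EpithelialKO mice. Every EpithelialKO value lay within the Flox range, and the log2 fold change was -0.03 ± 0.15 (95% interval -0.36 to 0.29; adjusted p = 0.962). For Ifit2, whose product also binds viral RNA, the values were 34.0, 34.7, 30.4, 18.6 and 26.4 CPM in the Flox mice and 18.8, 23.4, 22.0, 21.9 and 30.4 CPM in the EpithelialKO mice. Flox mouse 5 was lowest there too, level with EpithelialKO mouse 17 (log2 fold change -0.31 ± 0.17, adjusted p = 0.48). Ifit3b, the copy of Ifit3, had 19.0 ± 6.54 CPM in Flox and 17.8 ± 6.43 CPM in EpithelialKO lungs (-0.09 ± 0.27 on the log2 scale, adjusted p = 0.929). Ifit3 shared 51.2% of its transcript stretches of 50 bases with Ifit3b, and the counting of reads that match both is not given in the sources used here, so the split between them is uncertain. Ifit1 and Ifit3b also overlap Ifit1bl1 on the map.

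The catalytically active members of the OAS family make the oligoadenylate that switches on RNase L. The 6 genes of the family had a median fold change of -0.26, with 5 negative and none with an unadjusted p under 0.05. Oasl2, an OAS-like protein, had 33.3, 57.3, 38.3, 29.6 and 47.0 CPM in the Flox mice and 25.0, 40.2, 26.0, 37.9 and 33.0 CPM in the EpithelialKO mice. EpithelialKO mice 17 and 20 lay below every Flox mouse and Flox mouse 3 was highest, with a log2 fold change of -0.34 ± 0.18 (adjusted p = 0.458). Oas1a had 8.65, 11.1, 9.45, 6.72 and 11.6 CPM in the Flox mice and 8.22, 7.64, 9.74, 5.95 and 10.4 CPM in the EpithelialKO mice. The groups overlapped, and the lowest value was that of EpithelialKO mouse 21 (log2 fold change -0.18 ± 0.21, adjusted p = 0.764). Oas2 had 6.28, 5.55, 11.2, 10.7 and 5.13 CPM in the Flox mice and 5.54, 11.1, 3.0, 4.0 and 3.72 CPM in the EpithelialKO mice. Flox mice 4 and 5 and EpithelialKO mouse 18 lay between 10.7 and 11.2 CPM, and the other 7 mice between 3.0 and 6.28 CPM, so the groups overlapped (log2 fold change -0.50 ± 0.35, adjusted p = 0.591). Oas1g, Oas3 and Oasl1 had log2 fold changes of 0.19 ± 0.39, -0.36 ± 0.33 and -0.10 ± 0.30 at means of at most 5.92 CPM per group, and Oas1g was the one OAS gene with a positive value. Oas1a shared 57.6% of its transcript stretches of 50 bases with Oas1g, so these counts are uncertain in the same way as those of Ifit3.

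PARP9, DTX3L and PARP14 are ADP-ribosylation and ubiquitin enzymes induced by interferon. Their genes lie side by side on chromosome 16, and Parp9 and Dtx3l overlap. All 3 fold changes were negative, with a median of -0.18, and none had an unadjusted p under 0.05; leaving out Flox mice 4 and 6 gave -0.03, and 0.02 for Parp9 itself. Parp14 had 74.6, 64.2, 92.9, 80.1 and 80.7 CPM in the Flox mice and 56.0, 81.6, 72.5, 79.3 and 55.3 CPM in the EpithelialKO mice. EpithelialKO mice 17 and 22 lay below every Flox mouse, and the other 3 lay within the Flox range (log2 fold change -0.19 ± 0.13, adjusted p = 0.586). Parp9 had 45.6, 51.8, 49.8, 31.6 and 49.9 CPM in the Flox mice and 32.8, 46.5, 49.9, 46.5 and 42.6 CPM in the EpithelialKO mice. Flox mouse 5 and EpithelialKO mouse 17 were the lowest, and the other 8 mice lay between 42.6 and 51.8 CPM (log2 fold change -0.07 ± 0.14, adjusted p = 0.892). Dtx3l had 34.8, 28.7, 39.5, 26.0 and 36.6 CPM in the Flox mice and 26.6, 33.9, 31.5, 30.1 and 24.7 CPM in the EpithelialKO mice. Flox mouse 4 was the highest and EpithelialKO mouse 22 the lowest, and the groups overlapped (log2 fold change -0.18 ± 0.14, adjusted p = 0.635).

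The last 8 genes are induced by interferon but belong to no single pathway; 7 had negative fold changes, the median was -0.25, and 3 had an unadjusted p under 0.05. Ifi44, a GTP-binding protein with antiviral activity (chr3:151730922-151749910, Entrez 99899), had 8.37, 12.2, 12.4, 10.7 and 15.0 CPM in the Flox mice and 8.16, 9.45, 6.8, 7.14 and 6.54 CPM in the EpithelialKO mice. Of the EpithelialKO mice, 4 lay below the lowest Flox mouse and mouse 18 lay above it. Means were 11.7 ± 2.45 CPM in Flox and 7.62 ± 1.2 CPM in EpithelialKO lungs, which is 64.9% of the Flox level, and the log2 fold change was -0.62 ± 0.19 (95% interval -1.03 to -0.22; adjusted p = 0.185). Sp100 encodes a component of PML nuclear bodies (chr1:85649948-85709998, Entrez 20684). It had 74.4, 63.9, 80.8, 55.0 and 75.1 CPM in the Flox mice and 49.5, 54.3, 60.9, 57.9 and 62.8 CPM in the EpithelialKO mice. Flox mouse 5 lay among the EpithelialKO mice, and the other 4 Flox mice lay above all of them (log2 fold change -0.29 ± 0.11, 95% interval -0.53 to -0.05, adjusted p = 0.289). Xaf1, an antagonist of the caspase inhibitor XIAP (chr11:72301461-72313733, Entrez 327959), had 26.0, 33.1, 32.9, 33.6 and 30.1 CPM in the Flox mice and 25.0, 29.0, 26.5, 23.9 and 24.8 CPM in the EpithelialKO mice. EpithelialKO mice 17, 21 and 22 lay below every Flox mouse, and mice 18 and 20 lay above only Flox mouse 2 (log2 fold change -0.27 ± 0.11, 95% interval -0.51 to -0.03, adjusted p = 0.347). Ifi35, whose product pairs with NMI, had 74.0, 90.4, 76.7, 80.2 and 80.5 CPM in the Flox mice and 85.6, 78.0, 87.9, 71.8 and 80.1 CPM in the EpithelialKO mice. The groups overlapped throughout, and the log2 fold change of 0.01 ± 0.09 had a 95% interval of -0.19 to 0.20 (adjusted p = 0.99). Ifi27l2a, a small mitochondrial protein, had 41.7, 75.7, 98.4, 51.5 and 75.0 CPM in the Flox mice and 69.7, 74.8, 61.4, 54.5 and 52.9 CPM in the EpithelialKO mice. Flox mice held both the lowest and the highest values, with all EpithelialKO mice between them (log2 fold change -0.13 ± 0.20, adjusted p = 0.839). Its counts could share reads with Ifi27, which it overlaps. Trim30a (a TRIM protein), Rtp4 (a transporter of receptors) and Lgals3bp (a secreted galectin-binding glycoprotein) had log2 fold changes of -0.23 ± 0.14, -0.15 ± 0.16 and -0.42 ± 0.30, with adjusted p-values of 0.539, 0.761 and 0.599.

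**Figure D4:**
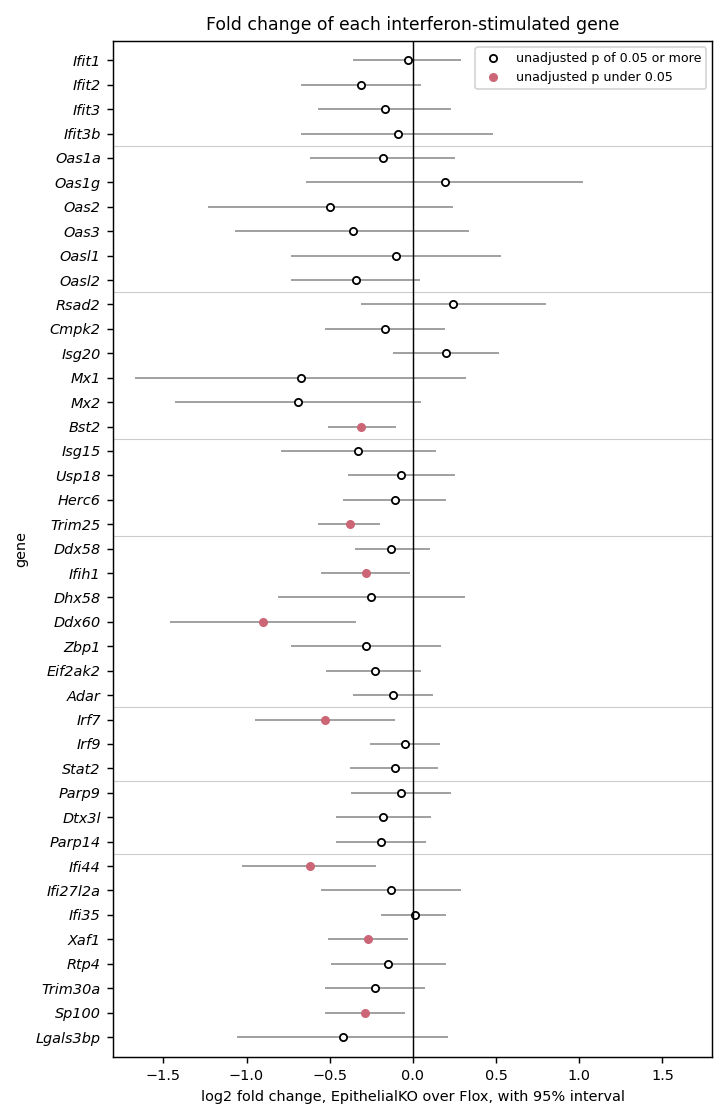
Log2 fold change of EpithelialKO over Flox (x axis) with its 95% interval for each of the 41 genes (y axis), grouped by subgroup. The points of 37 genes lie below 0, and the intervals of 33 genes include 0.

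The interferons themselves were almost not detected. Of 20 type I and III ligand genes listed, 16 had 0 counts in every mouse, Ifnb1 among them. The other 4 (Ifna7, Ifnk, Ifna13 and Ifnab) had 5 counts in the Flox mice and 4 in the EpithelialKO mice, in 180450372 counts in all. A count of 0 over the 10 mice allows a level of up to 0.0166 CPM, before TMM scaling (3 counts, counting error only). Ifng, the type II interferon, had 41 counts in Flox and 44 in EpithelialKO mice, and no ligand had enough counts to be tested. Outside the ligands, 59 further genes of interferon production and response were tested, and none passed the adjusted threshold in edgeR. Of these, 42 had negative fold changes, and the median was -0.09. At an unadjusted p under 0.05, 5 were lower and 1 higher, against 6.52% and 5.87% of tested genes. DESeq2 called 3 of the 59 as lower, against 1.34% of genes with an adjusted p, and limma-voom called 0, against 0.131%. Of the 9 receptors and kinases, Ifnlr1, the lambda interferon receptor of epithelium, had 10.9 ± 1.24 CPM in Flox and 13.7 ± 0.942 CPM in EpithelialKO lungs (0.33 ± 0.15 on the log2 scale, adjusted p = 0.368), and Jak1 had 212 ± 18.8 CPM in Flox and 184 ± 15.0 CPM in EpithelialKO lungs (-0.20 ± 0.09, adjusted p = 0.364). The receptor chain genes Ifngr1 and Il10rb and the kinase gene Jak2 had log2 fold changes of -0.04 ± 0.08, 0.01 ± 0.09 and -0.01 ± 0.09. The interferon regulatory factors Irf1 and Irf3 had log2 fold changes of 0.07 ± 0.14 and 0.04 ± 0.10. The 11 genes of sensing and adaptors had a median of -0.11, with Myd88 at 0.09 ± 0.11, Tbk1 at -0.11 ± 0.12 and Traf3 at -0.17 ± 0.12. The 5 negative regulators had a median of 0.14 with 1 negative, and the phosphatase genes Ptpn6 and Ptpn2 and the STAT inhibitor Pias1 were at -0.06 ± 0.13, 0.14 ± 0.11 and 0.14 ± 0.11. The 28 other interferon-stimulated genes had a median of -0.14 with 22 negative, and 4 were lower at an unadjusted p under 0.05. These were Slfn5 (-0.37 ± 0.10, adjusted p = 0.14), Ifi203 (-0.42 ± 0.11, adjusted p = 0.138), the peptide transporter gene Tap1 (-0.45 ± 0.12, adjusted p = 0.153) and Helz2 (-0.32 ± 0.12, adjusted p = 0.279). Slfn5, Ifi203 and Tap1 were the 3 called in DESeq2 (adjusted p = 0.0252, 0.0245 and 0.0408). In each of them every EpithelialKO mouse lay below every Flox mouse, against 1.48% of tested genes. The same held for Ly6e (927 ± 42.3 CPM in Flox and 829 ± 44.6 CPM in EpithelialKO lungs; -0.16 ± 0.08, adjusted p = 0.447), whereas Ifitm3 and Ifitm2, which block viral entry, had -0.11 ± 0.09 and -0.01 ± 0.09.

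Markers of several cell types also had mostly negative fold changes, and their part in the result was not tested. The 8 markers of plasmacytoid dendritic cells, which make much of the body's type I interferon, had a median fold change of -0.27 with 6 negative. Without Flox mice 4 and 6 it was -0.16, again with 6 negative. Their summed level was 193 to 244 CPM in Flox and 154 to 204 CPM in EpithelialKO lungs. Most of that sum was Tcf4, with 156 ± 19.7 CPM in Flox and 127 ± 21.9 CPM in EpithelialKO lungs. Of the 8 genes, only Tcf4 had an unadjusted p under 0.05 in edgeR. Which lung cells the RNA of these genes came from was not tested, so the sum is no measure of the number of plasmacytoid dendritic cells. Siglech, Ccr9, Klk1 and Pacsin1 had group means of at most 5.91 CPM, and Siglech was at -0.22 ± 0.29. The 6 general leukocyte markers had a median of -0.18, all negative, with summed levels of 767 to 1127 CPM and 754 to 939 CPM; Ptprc, the pan-leukocyte phosphatase, had 167 ± 25.6 CPM in Flox and 144 ± 18.9 CPM in EpithelialKO lungs (-0.21 ± 0.12). Without Flox mice 4 and 6 the leukocyte median was -0.02 with 3 of 6 negative, and Ptprc was at -0.05. T and NK cell markers had a median of -0.18 (9 of 9 negative; summed levels 103 to 196 CPM and 103 to 173 CPM) and B cell markers -0.43 (5 of 5 negative; 143 to 332 CPM and 105 to 196 CPM). With Flox mice 4 and 6 left out, these medians were 0.04 (2 of 9 negative) and -0.30 (5 of 5 negative). The 4 tested neutrophil markers were all negative with a median of -0.32, and their list had summed levels of 239 to 347 CPM and 140.3 to 394 CPM; without Flox mice 4 and 6 the median was -0.17. The 6 endothelial markers had a median of -0.41. All were lower at an unadjusted p under 0.05 in edgeR, against 6.52% of tested genes, and the lowest adjusted p was 0.0598. Their summed levels were 2452 to 3180.1 CPM in Flox and 1848 to 2379 CPM in EpithelialKO lungs, which do not overlap. How often the sums of other gene sets separate the groups was not computed. Of the 6 genes taken singly, only Plvap had every EpithelialKO mouse below every Flox mouse, against 1.48% of tested genes. The 6 markers of fibroblasts and smooth muscle had a median of -0.48, all negative (499.9 to 641 CPM and 381 to 492 CPM, again without overlap of the sums). No single gene of that list had every EpithelialKO mouse below every Flox mouse. The endothelial and fibroblast medians without Flox mice 4 and 6 were -0.33 and -0.30, each with 6 of 6 negative. In each of these 2 lists 3 genes then had an unadjusted p under 0.05 in edgeR, against 4.12% of tested genes lower. Of the 9 monocyte and macrophage markers 2 were negative, and their median was 0.10 (9634 to 13736 CPM and 12619 to 17315 CPM, most of it Lyz2, with 10592 ± 1263 CPM in Flox and 13155 ± 1877 CPM in EpithelialKO lungs). Marco, a scavenger receptor of alveolar macrophages, had 25.4 ± 3.86 CPM in Flox and 15.2 ± 1.84 CPM in EpithelialKO lungs (-0.74 ± 0.14, adjusted p = 0.0598 in edgeR and 0.000564 in DESeq2). Every EpithelialKO mouse lay below every Flox mouse for Marco, against 1.48% of tested genes. Chil3, Mrc1, Adgre1 and Cd68 of the same list were positive, at 0.33 ± 0.27, 0.12 ± 0.26, 0.14 ± 0.25 and 0.10 ± 0.34. None of 10 epithelial markers was negative, and their median was 0.25 (53832 to 79431 CPM and 74570.2 to 79619 CPM, most of it Sftpc and Scgb1a1). Of the 10 markers, 6 were higher at an unadjusted p under 0.05 in edgeR, against 5.87% of tested genes, with a lowest adjusted p of 0.108. Ager was at 0.01 ± 0.12. The medians of the macrophage and epithelial lists without Flox mice 4 and 6 were 0.32 (2 of 9 negative) and 0.26 (3 of 10 negative). Sftpc, a surfactant gene of alveolar epithelium, had 32975 ± 3473 CPM in Flox and 39095 ± 4259 CPM in EpithelialKO lungs. No tested marker of these lists was at 0. Over the members the summed level was 1264 to 1624 CPM in Flox and 1213 to 1387 CPM in EpithelialKO lungs. In Flox mouse 3, where the members' median deviation was 0.33, that of the 9 marker lists lay between -0.11 (fibroblasts and smooth muscle) and 0.41 (neutrophils).

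**Figure D5:**
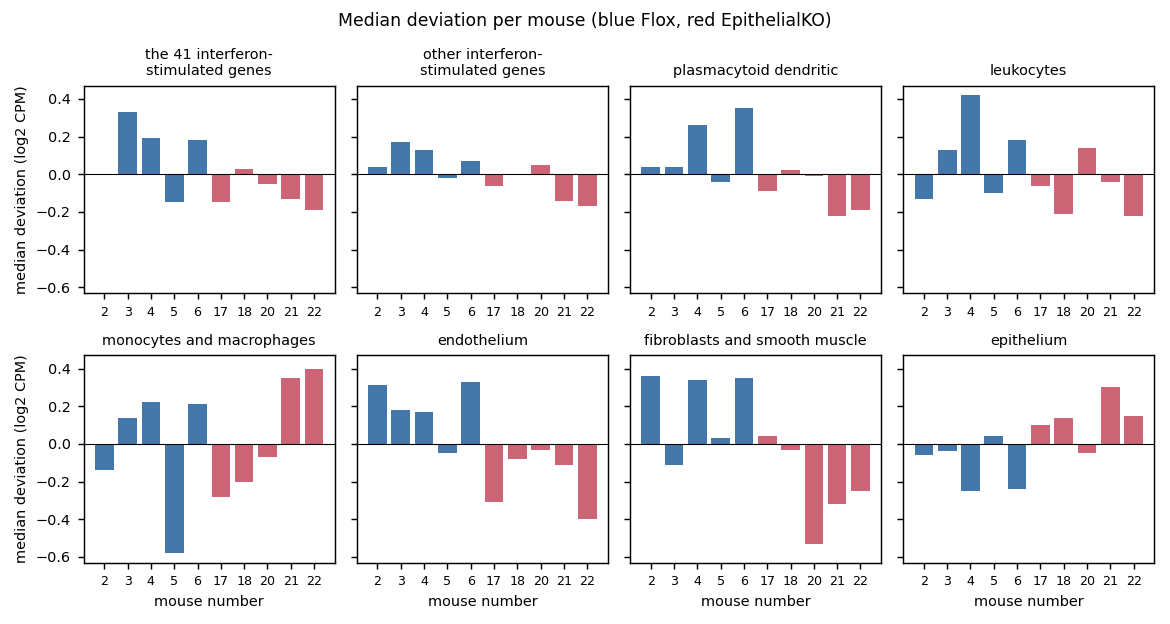
Median over the genes of a list of the difference of log2 CPM from each gene's mean over 10 mice (y axis) in each mouse (x axis), for the 41 genes, other interferon-stimulated genes and 6 cell-type marker lists, with Flox in blue and EpithelialKO in red. The 41 genes are highest in Flox mouse 3 (0.33) and lowest in EpithelialKO mouse 22 (-0.19), and the endothelial list is above 0 in 4 of 5 Flox mice and below 0 in all EpithelialKO mice.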

How the data were processed

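Lung RNA of 10 mice was sequenced after Trizol extraction, oligo(dT) selection, fragmentation and random-primed cDNA synthesis, per the labels' protocols. The submitters' processing notes name cutadapt, HISAT2 and build GRCm38. The method of counting reads, with its strand setting and treatment of shared reads, is not given in the sources used here. In the deposited table there is 1 raw count for each Entrez gene and mouse, judged from its whole numbers and unequal totals. Symbols and gene coordinates came from the RefSeq table of that build, which matched 25275 of 27179 genes. Low counts were removed with filterByExpr, and 15301 genes were scaled by TMM and tested with edgeR 4.0.16 (quasi-likelihood F test, robust, group as the only term; R 4.3.3). SEs and 95% intervals derive from that fit. Its recovery of changed genes was checked on simulated counts, with fold changes larger than those of most members. That check does not cover the detection of smaller changes. Alternatives were DESeq2 1.42.0, limma-voom 3.58.1 with sample weights, other scalings and filters, a threshold of 0.1, sex class from Xist and Y-linked counts, and leaving out mice; the medians of cell marker lists without Flox mice 4 and 6 were added after seeing the data.

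The members and all gene lists were chosen with earlier results of these data known. Values in every mouse are given for up to 3 members of each subgroup with the highest mean CPM and for any member with an unadjusted p under 0.05; of each pathway list, genes with an unadjusted p under 0.05 and up to 3 others with the highest mean CPM are named, except 1 gene that is not reported here. Ligands and the neutrophil gene Ly6g had too few counts to be tested. Depth was 14983829 to 21224412 counts per mouse.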

Additional observations from a re-analysis of the deposited data

Results flagged for a closer look

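In the 82 sets of 5 mice (41 genes in 2 groups), 3 held a mouse far from the 4 others of its group, measured by the gap to its nearest neighbour over the whole range. At the 95% critical value used, chance alone flags a small share of sets this way, and 3 of 82 is not above that share. Isg15 was highest in Flox mouse 3 at 35.5 CPM, with the other 4 Flox mice between 14.2 and 20.1 CPM. Adar was lowest in Flox mouse 5 at 44.9 CPM, the others lying between 53.4 and 56.2 CPM, and highest in EpithelialKO mouse 18 at 62.0 CPM, the others lying between 43.6 and 46.1 CPM. Adar overlaps Chrnb2 on the map, which had 252 counts over the 10 mice against 9139 for Adar.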

How the results depend on the processing

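No paired analysis was possible because the mouse numbers of the 2 groups are not shared. The count of all genes called, 6 in edgeR, was 34 with no filter, 32 in limma-voom, 279 in DESeq2, 38 at a threshold of 0.1, 1 with sex class as a covariate, 0 without Flox mice 4 and 6 (1207 at an unadjusted p under 0.05), and 0 to 48 when each mouse was left out. DESeq2 called 2 members and 3 pathway genes; each other alternative called 0 of both at 0.05. Members lower at an unadjusted p under 0.05 numbered 5 to 11 when each mouse was left out. The lowest count came without Flox mouse 3 and also without Flox mouse 4. The median of the ISG15 subgroup then lay between -0.27 (without Flox mouse 2) and -0.06 (without Flox mouse 3). Of 738 alternative fold changes of the 41 genes, 710 kept their sign, and 31 genes kept it in all.

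Fold changes with the other sign were as follows. With sex class as a covariate and without Flox mice 4 and 6 in turn, they were 0.05 and 0.05 for Oasl1, 0.06 and 0.06 for Cmpk2, 0.00 and 0.01 for Irf9, 0.02 and 0.02 for Parp9, 0.16 and 0.16 for Ifi27l2a, -0.02 and -0.01 for Ifi35, and 0.01 and 0.01 for Rtp4. In limma-voom Ifit1 was at 0.02. Leaving out each mouse gave -0.13 to 0.11 for Ifit1, -0.29 to 0.05 for Ifit3b, -0.23 to 0.05 for Oasl1, -0.14 to 0.01 for Usp18, -0.17 to 0.02 for Parp9, -0.26 to 0.04 for Ifi27l2a and -0.03 to 0.05 for Ifi35. The cause was not tested.

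With 5 mice a group and SEs of 0.09 to 0.47 on the log2 scale, 33 of the 41 intervals included 0.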
